A study of Homo sapiens with 12 samples.

Results

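MED30, a subunit of the Mediator complex, was induced on its own in Mia PaCa-2 cells, and the transcription of all genes was compared between cells with and without the inducer doxycycline (Dox). The 4 libraries labelled MED30 were taken from 12 libraries of the series, as those whose deposited tables hold scaled scores. Mia PaCa-2 is an established line of human pancreatic carcinoma cells. The other 8 libraries are labelled MYC, or MYC together with MED30, and they enter here only where the tables are compared.

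Both groups are the same stable line, in which a MED30 cDNA sits under a Tet-on promoter. The 2 MED30 control libraries had no Dox, and the 2 MED30 overexpression libraries had Dox at 0.5 μg/ml. The methods give 1 day of induction, while the results text speaks of 2 days. A line that lacks the MED30 cDNA but received Dox is not among the groups, so Dox and MED30 cannot be told apart. The sources used here do not say whether the line is a clone, or whether replicates came from separate cultures. A p-value here therefore weighs a difference against the spread of these libraries alone, and that spread may be technical.

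Mediator is a large complex that links transcription factors at enhancers and promoters to RNA polymerase II, and MED30 belongs to its metazoan head region. Many inducible programs, among them interferon and growth factor responses, depend on Mediator to bring the polymerase to their promoters. Precision run-on sequencing (PRO-seq) sequences the RNA that engaged polymerases extend in isolated nuclei, so it reads transcription in progress and not the RNA that has accumulated.

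The values are scores that the authors scaled and rounded, with totals from 6379143 to 6519353 and an unknown depth, and levels below are these scores after TMM scaling, which evens out composition between libraries. They do not separate fewer cells of a type from less RNA per cell, and no spike-in was used here. Across 13343 genes, each table stood in a nearly fixed ratio to the raw counts of the same-numbered library labelled MYC. Its deviations from the mean of its 4 libraries correlated at 0.915 to 0.938 with those of that library (a description across genes, which are not independent). The ratio was not fixed at every gene. IL23R had scores of 0 and 1 without Dox, where that ratio would give 15.9 and 14.8 from 59 and 51 counts, and ENOX1 had 10 and 5 where it would give 36.1 and 27.6. In the libraries labelled MYC, MED30 itself had 814 and 733 counts without Dox and 20435 and 19642 with Dox, and MYC had 9840 and 8839 without Dox and 6741 and 8274 with Dox. The counts of these 4 libraries thus go against their label, since MED30 was far higher with Dox and the raw MYC counts were lower. Whether both sets of tables come from the same libraries cannot be told from the files. The 2 controls differed by a median of 0.0726 on the log2 scale and the 2 overexpression libraries by 0.15.

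Markers of an epithelial carcinoma line with mesenchymal traits were present in part. The epithelial genes EPCAM, OCLN and CLDN3 and the mesenchymal genes CDH2, ZEB2 and TWIST1 did not reach a score of 10 in 2 libraries. CDH1 reached it only in the Dox libraries. VIM, an intermediate filament of mesenchymal cells, had values of 8870.1 and 8901 without Dox, KRT8 had 1175 and 1094, and KRT18 had 1234 and 1165. CDKN2A was listed at 0 in every library. Its neighbours CDKN2B, at no more than 1.05, and MTAP, at 3.78 to 4.19, were near 0 too. GATA6 was low, at 4.16 to 13.2. Of 16 acinar and islet markers, 10 were at 0 in every library and their sum ran from 23.2 to 24.1 ppm of the library total in the controls and from 23.6 to 25.8 ppm with Dox. For blood and stromal markers, 6 of 20 were at 0, among them PTPRC, HBB and DCN, and the sum was 362 ppm in both controls and 356 and 385 ppm with Dox. Of the members tested, 0 of 3 and 1 of 9 were called.

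MED30 transcription rose about 22-fold, and MYC, its neighbour on 8q24, fell. MED30 lies on chromosome 8 of GRCh38 from 117520713 to 117540262 on the plus strand. Its level was 186 and 176 in the controls and 4030.2 and 3922 with Dox, so that the groups lay far apart. It rose by 4.45 on the log2 scale (standard error 0.07, limma adjusted p = 1.63e-09, 21.9-fold), and its value sums whatever came from the cDNA and from the gene itself. MYC lies on the same chromosome from 127735434 to 127742951, and its level was 2686 and 2594 without Dox and 1800.2 and 1772 with Dox. It fell by 0.56 (standard error 0.06, limma adjusted p = 0.000437), with both Dox libraries below both controls.

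Among 14771 genes with a score of 10 or more in at least 2 libraries, 2363 were called at an adjusted p under 0.05. Of these, 1088 rose (7.37% of genes tested) and 1275 fell (8.63%). The rises were larger, with a median of 0.567 on the log2 scale for genes that rose and -0.378 for genes that fell. Rises of at least 1 on the log2 scale were found for 151 genes, falls of that size for 34. A change of at least 2 was seen in 22 rises and in 0 falls among called genes, while 4712 genes in all had an unadjusted p under 0.05. In 4709 genes both Dox libraries lay above both controls (31.9% of genes tested) and in 4307 below both (29.2%). At the thresholds of the study (unadjusted p under 0.05, fold change beyond 0.35 or -0.35 on the log2 scale) 1545 genes were up (10.5%) and 956 were down (6.47%). The study, which tested with DESeq2, reports fewer genes in each direction for MED30 overexpression, and more down than up. The filter let 173 genes pass only through the Dox libraries, of which 62 rose, and 29 only through the controls, of which 11 fell.

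The count of calls moved with each library left out. Without control 1 there were 928 calls and without control 2 there were 761, against 6761 without overexpression 1 and 4568 without overexpression 2. Scaled by library size only, all genes had a median of 0.114 where TMM gave 0.0143, and then 1863 genes rose while 688 fell.

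In the limma fit, rises were spread over genes of low and middle level, whereas falls lay mostly in the most transcribed genes. In the lowest quartile of genes by level, 266 rose and 64 fell, with a median change of 0.133 on the log2 scale. In the highest quartile, at levels from 475 to 20511, 171 rose and 859 fell (23.3% of 3693), with a median of -0.1. Scaled by library size only, 379 genes of this quartile rose and 488 fell, with a median of 0.000869, against 386 and 34 in the lowest quartile. With DESeq2 on the values treated as counts, rises numbered 0, 52, 104 and 89 from the lowest to the highest quartile. Falls then numbered 0, 20, 85 and 606. Gene length showed a smaller tilt of the same kind, since 473 of the 3475 longest genes fell and 256 rose. Chromosome 19 held 115 genes that rose and 24 that fell among 1058 tested. On chromosome 13 it was 7 and 32 of 250.

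**Figure D1:**
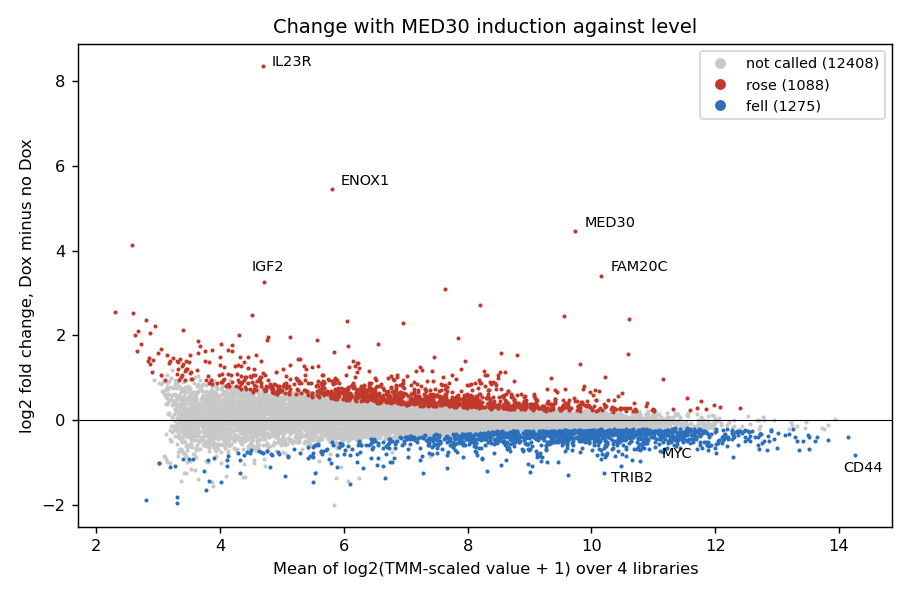
Log2 fold change with Dox (y axis) against the mean level of each gene over the 4 libraries (x axis, log2 of the TMM-scaled value + 1). Red points are the 1088 genes that rose, blue points the 1275 that fell and grey points the other genes tested. Falls gather at the right, and IL23R (8.35), ENOX1 (5.45) and MED30 (4.45) are the highest points.

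Apart from SLC25A36 (below), the strongest rises were genes that the cells hardly or moderately transcribe without Dox. IL23R, which pairs with IL12RB1 to bind interleukin-23, was listed at 0 in 1 control and had 1.04 in the other, against 483 and 446 with Dox. Its log2 fold change of 8.35 (standard error 0.31, limma adjusted p = 1.02e-06) therefore depends on the pseudocount of 1, and with either Dox library left out it no longer passed the filter. ENOX1, a cell surface NADH oxidase on chromosome 13, went from 10.5 and 5.19 to 378 and 357, a log2 fold change of 5.45 (limma adjusted p = 5.84e-06). No library of one group reached the range of the other in either gene.

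FAM20C, a Golgi kinase that phosphorylates secreted proteins, had 343 and 358 without Dox and 3563 and 3901 with Dox (log2 fold change 3.41, limma adjusted p = 1.31e-08). GOLGA7, which helps to palmitoylate RAS proteins, had 76.4 and 59.2 against 576 and 582 (3.09, limma adjusted p = 2.06e-06). SLC25A36, a mitochondrial carrier of pyrimidine nucleotides, was the highest of this group without Dox, with 691 and 663, and reached 3885 and 3259.7 (2.39). All of them lay in separate ranges with and without Dox.

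CREB3L3, a membrane-bound transcription factor known from liver and gut, rose from 30.4 and 27 to 141 and 156 (2.33). EVA1C went from 48.2 and 62.3 to 299.5 and 251 (2.30), and SYNPO, an actin-binding protein of podocytes, from 15.7 and 17.7 to 59.3 and 78.4 (1.97). IRAG1 (1.76), which acts in cGMP signaling, and SARDH (1.60), which oxidises sarcosine, closed the 15 largest rises among called genes with a mean log2 level of 5 or more, a limit that leaves out less transcribed genes with larger rises. Each of these 15 also rose in all 4 fits that left out 1 library. With DESeq2 on the values treated as counts, SYNPO, NRG2 and SARDH had no adjusted p.

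The largest falls were smaller, between -1.51 and -1.08, and several of the genes are noncoding RNAs or have only a LOC name. LOC101927914 fell by 1.51, from 117 and 112 to 37.9 and 41.6, and LOC101929154 fell by 1.36, from 164 and 159 to 60.3 and 64.3. TM4SF18, a membrane protein of the tetraspanin-like L6 family, fell from 1232 and 1224 to 518 and 488 (-1.29, limma adjusted p = 1.26e-05). TRIB2, a pseudokinase that steers proteins to degradation, fell from 1861 and 1790.0 to 800.4 and 733 (-1.25, limma adjusted p = 1.6e-05). Both showed a narrow spread within each group.

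CHI3L1, a secreted chitinase-like protein, went from 52.4 and 49.9 to 19.5 and 20.8 (-1.30). PMEPA1, a TGF-beta target that dampens the pathway, went from 778 and 782 to 315 and 362 (-1.21). RIPK4, a kinase of keratinocyte differentiation, went from 781 and 745 to 353 and 367 (-1.08), and the zinc-sensing receptor GPR39 from 85.9 and 85.2 to 42.8 and 36.9 (-1.09). MIR2052HG was the least even of the 15, with 42.8 and 16.1 under Dox, and it did not pass when low genes were kept in (adjusted p = 0.181) or when the variance had no trend (adjusted p = 0.133). By p, the leading falls were TM4SF18, TRIB2, the noncoding RNA UCA1 (-0.94), the calcium-binding protein CALB2 (-1.07) and the scaffold SHANK2 (-0.96).

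**Figure D2:**
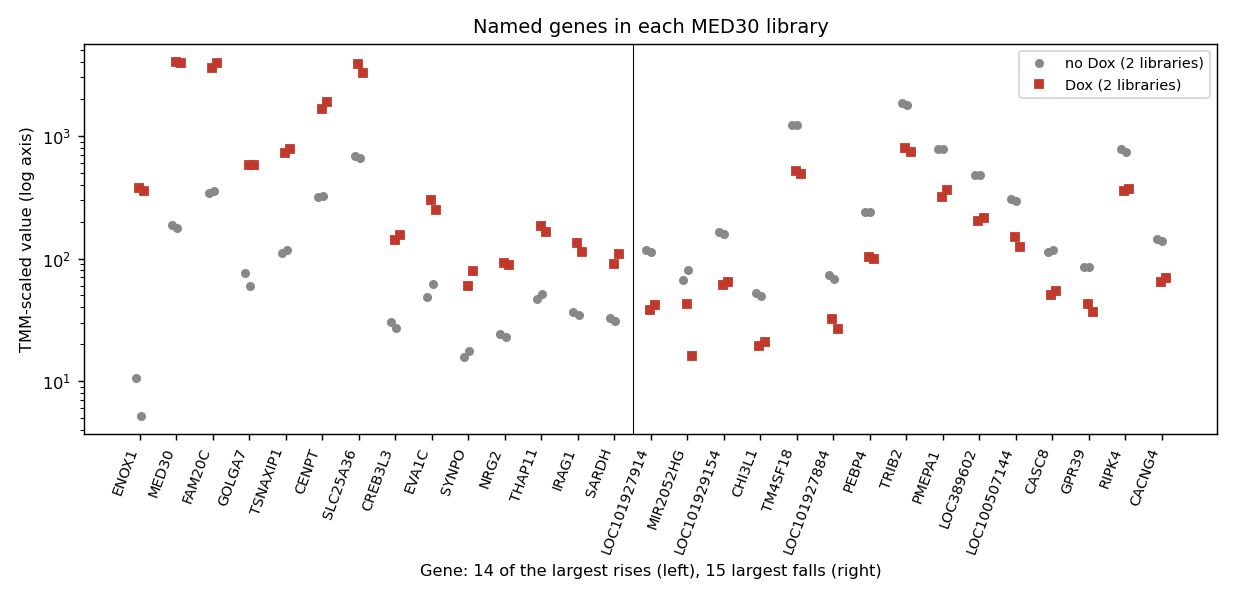
TMM-scaled value of each gene (y axis, log scale) in the 2 libraries without Dox (grey circles) and the 2 with Dox (red squares), for 14 of the 15 largest rises on the left and the 15 largest falls on the right, among called genes with a mean log2 level of 5 or more. Both Dox libraries lie beyond both controls in all 29 genes shown, as the rule for naming them requires.

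The 12 genes that the study discusses gave 5 rises (41.7%, against 7.37% of all genes tested) and 1 fall (8.33%, against 8.63%). This list was chosen by the study on these samples. It includes MED30, the induced gene, whose rise was set by the design. IL23R, which rose, and IGIP passed the filter only through the Dox libraries. NRG2, a neuregulin ligand of ERBB receptors, had 24.1 and 22.9 without Dox and 92.4 and 87.9 with Dox (log2 fold change 1.90, limma adjusted p = 0.000162). FUCA1, a lysosomal fucosidase, had 10.5 and 12.5 against 32.1 and 27.4 (1.30, limma adjusted p = 0.00538), and it did not pass when low genes were kept in (adjusted p = 0.0571). The following members did not pass at an adjusted p under 0.05, though IRAK2, IGIP and PURA were up at the study thresholds, where p is unadjusted. IRAK2, a kinase of interleukin-1 signaling, had a log2 fold change of 0.39 (adjusted p = 0.0847), IGIP of 0.77 (0.0594), PURA of 0.37 (0.145) and CYSTM1 of 0.07 (0.449). PABPC1, with -0.13, and PGK1, with -0.12, had adjusted p-values of 0.18 and 0.194.

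Of the 15 largest rises named above, 7 (46.7%) had another gene that rose within 100 kb. For all genes that rose the share was close to that, at 43.2%. Among the 7, CENPT, TSNAXIP1 and THAP11 are neighbours of each other. ENOX1, CREB3L3, EVA1C, SYNPO and IRAG1 were among those without such a neighbour. On 16q22, CENPT, a kinetochore protein, rose by 2.46 (318 and 326 to 1673 and 1877), TSNAXIP1, which overlaps it on the opposite strand, by 2.72 (110.0 and 117 to 724 and 784), and the transcription factor THAP11, which also overlaps it there, by 1.81. NUTF2, a carrier of nuclear import that also overlaps CENPT, rose by 1.32 (limma adjusted p = 2.71e-05), and EDC4, an mRNA decapping protein 25.2 kb away, by 0.55 (adjusted p = 0.0265). The methods state counting on the sense strand, and how far reads of one strand entered the values of the other was not tested.

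NRG2 was flanked by MALINC1 (1.89, 28 kb) and PSD2 (1.5, 2.31 kb), and SARDH by DBH, the enzyme that makes noradrenaline (1.37, 4.23 kb). SLC35D1, 84.8 kb from IL23R, rose by 1.16 (limma adjusted p = 0.000207), and GINS4, 18.1 kb from GOLGA7, by 0.53. Falls had called neighbours too, such as MIR3681HG beside TRIB2 (-0.80) and TM4SF1 beside TM4SF18 (-0.39). MRAP near EVA1C (-0.35) and VAV2 near SARDH (-0.28) fell beside a gene that rose. Neither passed with library size alone (limma adjusted p = 0.0768 and 0.134). Without a trend in the variance, PSD2, GINS4, TM4SF1, MRAP and VAV2 did not pass (limma adjusted p from 0.0696 to 0.156).

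Of the 1047 genes that rose and have a position in the annotation, 452 (43.2%) had another gene that rose within 100 kb, against 2767 (23.8%) of 11639 genes that were not called. For falls it was 44.7% of 1213 against 20%. The share that overlapped a gene of the same direction on the opposite strand was 7.55% for rises and 7.83% for falls, against 1.47% and 1.76% of genes not called. On the same strand and without overlap, it was 24.6% and 20.6% against 14.1% and 10.6%. These shares are descriptions without a test, since neighbours share a region.

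**Figure D3:**
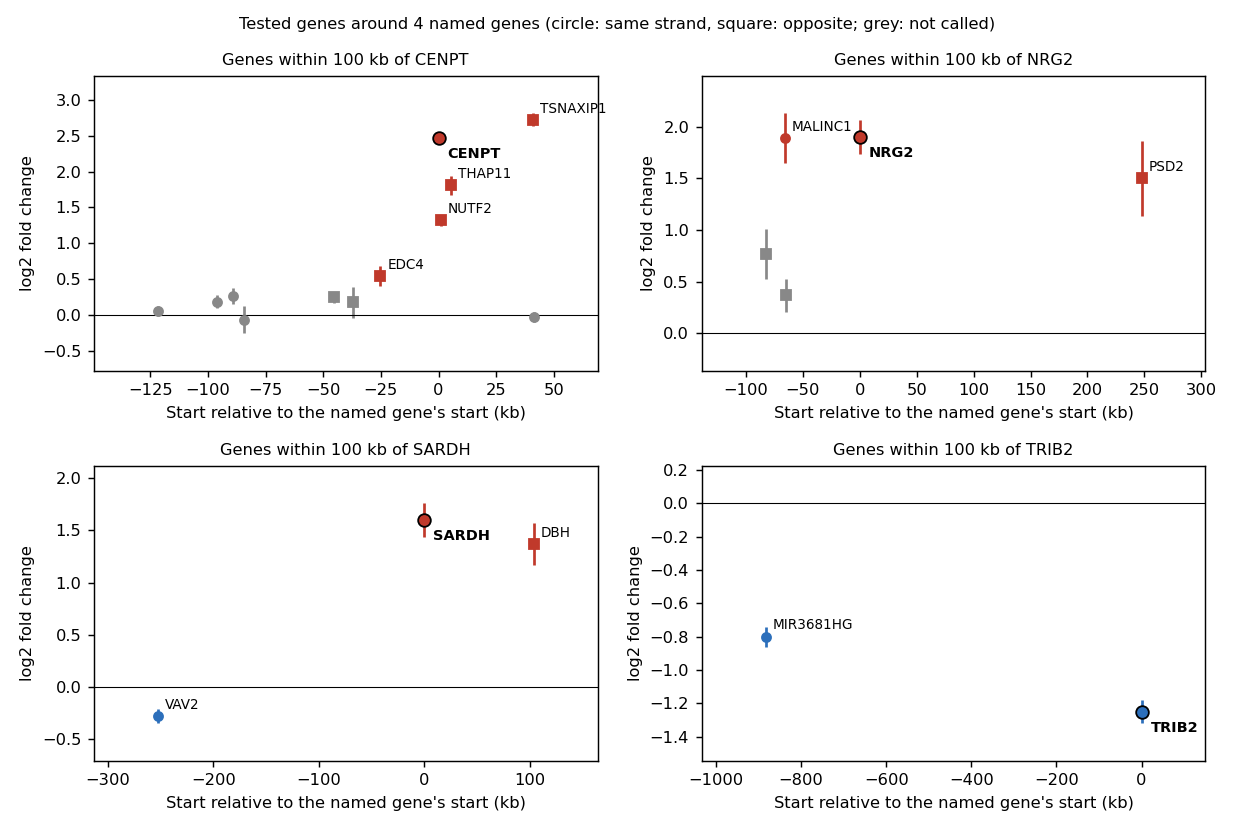
Log2 fold change with its standard error (y axis) of tested genes within 100 kb of CENPT, NRG2, SARDH and TRIB2, by the distance of their start from that of the named gene (x axis, kb, positive in its direction of transcription). Circles are on the strand of the named gene and squares on the other, red points rose, blue fell and grey were not called. Around CENPT, 4 neighbours rose, the highest being TSNAXIP1 at 2.72.

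Interferon response genes rose as a group, from antiviral effectors to sensors and signaling factors. Of 54 list genes 43 passed the filter, while 11 (among them IFI27, IFI44L and IRF7) did not. Of the 43, 28 rose (65.1%, against 7.37% of all genes tested), 1 fell and 14 did not pass the test. OAS1, RSAD2, BST2 and SAMD9 passed the filter only through the Dox libraries, and the first 3 of them are among the 28. Of the other 39 genes 25 rose, with a median of 0.51, a split made after the values were seen. The median log2 fold change of the 43 was 0.528, against 0.0143 for all genes, and it was 0.547 in overexpression 1 and 0.51 in overexpression 2. OASL, an antiviral protein of the oligoadenylate synthetase family, had 256 and 267 without Dox and 577 and 581 with Dox (1.15, limma adjusted p = 5.03e-05). IFIT3 and IFIT1, antiviral proteins that act in a complex on viral RNA, went from 245 and 261 to 539.8 and 478 (1.00, adjusted p = 0.000227), and from 207 and 201 to 388 and 362 (0.88, adjusted p = 0.000345). RSAD2, or viperin, had the highest value of the list, 2.01, with 9.43 and 8.31 without Dox and 41.8 and 35.9 with Dox (adjusted p = 0.000575), and it was not tested with either Dox library left out.

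The list also holds the factors that carry the signal. STAT2 (0.52) and IRF9 (0.50), transcription factors of type I interferon signaling, rose, and so did the RNA sensors IFIH1 (1.04), DHX58 (1.04) and RIGI (0.45). IRF1 (0.09), MX2 (0.00) and IFITM1 (0.05) were not called. IFIT2, which lies in the cluster of IFIT1 and IFIT3, fell by 0.50. The members of this paragraph were chosen after their values were seen. Rises in the list numbered 19 without control 1 and 17 without control 2, 15 without a trend in the variance, 12 with DESeq2 and 8 without a filter on low values, while the median stayed between 0.486 and 0.627 in every setting.

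**Figure D4:**
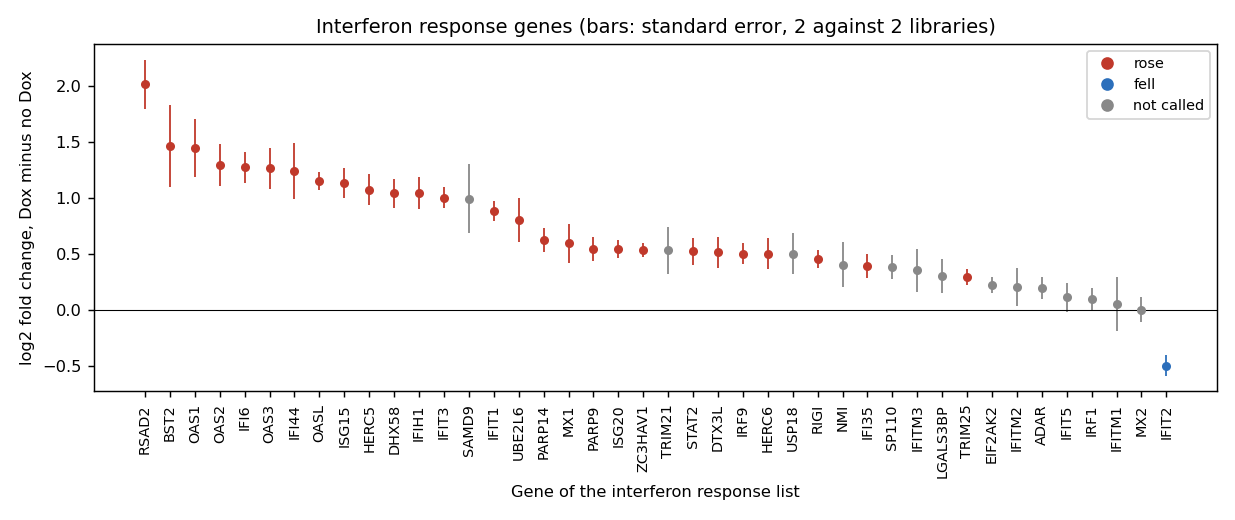
Log2 fold change with Dox (y axis) of 42 of the 43 tested genes of the interferon response list (x axis, ordered by change). Points are the fit over 2 against 2 libraries, bars the standard error, and colours give genes that rose (red), fell (blue) or were not called (grey). RSAD2 leads at 2.01 and IFIT2 is lowest at -0.50.

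Many interferon genes carry an interferon-stimulated response element (ISRE) before their start, the site at which STAT and IRF factors bind. It was searched as GAAA, then any 2 bases, then GAAA, on either strand of the 300 bases from 250 before to 50 after the first start that RefSeq lists, in GRCh38.p14. Of 35 list genes with such a window, 21 (60%) held it, against 2.7% of 11179 tested genes and 3.65% of all 27305 windows in the table. Among list genes that rose it was 13 of 24, and among those not called 8 of 11. The stretches before the start of 4 genes that rose (IFIT1, IFIT3, IFI6, ISG15) and of 2 that were not called (IFIT5, IFITM1) were chosen after their values were seen. They are shown to compare their elements, 5′ to 3′ on the strand of the gene. Matches are in capitals, and a match that overlaps an earlier one was neither counted nor marked.
IFIT1, chr10:89392467-89392569, plus strand: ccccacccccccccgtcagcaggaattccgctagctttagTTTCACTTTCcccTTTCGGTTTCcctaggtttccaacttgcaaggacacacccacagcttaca
IFIT3, chr10:89327801-89327924, plus strand: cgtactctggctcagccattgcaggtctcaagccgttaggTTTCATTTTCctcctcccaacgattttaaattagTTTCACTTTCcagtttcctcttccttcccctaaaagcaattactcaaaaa
IFI6, chr1:27672236-27672388, minus strand: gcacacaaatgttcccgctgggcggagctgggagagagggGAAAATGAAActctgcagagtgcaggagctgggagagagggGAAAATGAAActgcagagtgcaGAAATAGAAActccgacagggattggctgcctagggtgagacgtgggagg
ISG15, chr1:1013344-1013433, plus strand: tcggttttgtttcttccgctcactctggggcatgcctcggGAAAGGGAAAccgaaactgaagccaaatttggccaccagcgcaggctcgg
IFIT5, chr10:89414483-89414567, plus strand: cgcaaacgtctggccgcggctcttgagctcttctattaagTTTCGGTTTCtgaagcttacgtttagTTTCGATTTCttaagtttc
IFITM1, chr11:313960-314039, plus strand: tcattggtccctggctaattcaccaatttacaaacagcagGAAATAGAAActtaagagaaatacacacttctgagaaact

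Genes that rose and genes that were not called shared the element. IFI6 holds 3 matches and rose by 1.27. ISG15 holds 1, with a further match that overlaps it left uncounted, and rose by 1.13. IFIT1 and IFIT3 hold 2 each, as does IFIT5, whose log2 fold change was 0.11. Over all genes that rose, 4.25% of 824 windows held the element, and over all that fell 2.81% of 1033.

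The E-box CACGTG, the site that MYC and its partner MAX bind best, was in 9.58% of the windows of tested genes, in 6.92% of those that rose and in 10.1% of those that fell. At the study thresholds the latter shares were 8.04% and 8.07%. AP-1 sites (TGANTCA) were in 4.79% of tested windows, 4.37% of those that rose and 7.36% of those that fell, and the cAMP element TGACGTCA in 3.14%, 2.31% and 4.36%. Over all windows in the table the shares were 7.43%, 7.76% and 1.98%. SLC25A36 was the only 1 of 10 strongest rises with a window that held the E-box, and HSPD1, a mitochondrial chaperone that fell, is shown beside it. Both stretches run 5′ to 3′ on the strand of the gene, with the E-box in capitals.
SLC25A36, chr3:140941653-140941738, plus strand: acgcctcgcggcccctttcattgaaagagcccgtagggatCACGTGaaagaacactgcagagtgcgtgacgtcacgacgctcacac
HSPD1, chr2:197500317-197500402, minus strand: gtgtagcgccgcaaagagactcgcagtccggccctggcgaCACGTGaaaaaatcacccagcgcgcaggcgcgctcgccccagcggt

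Other innate immune lists are small and held calls in either direction, where 7.37% of all genes rose and 8.63% fell. Of 11 inflammasome genes, 5 rose (45.5%) and 0 fell (median 0.271), led by the sensor NLRP1, from 7.33 and 10.4 to 55.4 and 51 (2.48, limma adjusted p = 0.000256), and the inflammatory caspase CASP4 (1.08). For MHC class I antigen presentation, 3 of 9 rose (33.3%) and 1 fell, led by NLRC5, the activator of MHC class I genes, which went from 221 and 219 to 457 and 462 (1.06, adjusted p = 8.95e-05), with the proteasome activators PSME2 (0.88) and PSME1 (0.54). ERAP1, which trims antigenic peptides, fell by 0.35. NF-kB genes gave 3 rises (10.7%) and 6 falls (21.4%) of 28. BIRC3, an inhibitor of apoptosis, fell from 803 and 823 to 419 and 416 (-0.96, adjusted p = 6.25e-05), the urokinase gene PLAU by 0.69, NFKBIA, the inhibitor that NF-kB itself induces, by 0.67, and BIRC2 by 0.48. Without a filter on low values or with DESeq2, the inflammasome rises numbered 1 and 0, and without control 1 and control 2 they numbered 1 and 2. MHC class I rises then numbered 2 and 1 and falls 0 and 0, while NF-kB rises numbered 0 and 0 and falls 6 and 6.

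Immediate early genes and feedback inhibitors of ERK signaling fell in 18 of 40 tested members (45%, against 8.63% of all genes), and 1 rose. PHLDA1 fell from 3474 and 3466 to 2301 and 2123 (-0.65, limma adjusted p = 0.000304), the zinc finger factor KLF6 from 10466 and 10017 to 6870.1 and 6264 (-0.64), the ERK inhibitor SPRY2 from 1672 and 1676 to 1192 and 1143 (-0.52), and the AP-1 subunit FOSL2 by 0.44. The median was -0.174 (-0.244 and -0.184 in the overexpression libraries 1 and 2). In this list 27 of 40 members lie in the highest quartile by level, where 23.3% of genes fell.

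Histone and replication genes fell in part, while most members did not pass the test. Of 44 replication-dependent histone genes, 19 fell (43.2%, against 8.63% of all genes) and 0 rose (median -0.263), with H3C4 from 1538 and 1578 to 1130.1 and 1100.1 (-0.48, limma adjusted p = 0.00123), H2AC7 (-0.51), H2AC6 (-0.46) and the linker histone H1-3 (-0.78). These genes share near-identical sequence, so reads may be split among copies. Of 49 replication genes, 14 fell (28.6%) and 3 rose (6.12%, against 7.37% of all genes), with a median of -0.155, and 23 lie in the highest level quartile, where 23.3% of genes fell. The clamp loader subunit RFC3 fell from 783 and 810.3 to 443 and 432 (-0.86, adjusted p = 0.000141), RFC2 by 0.59, the helicase subunit MCM6 by 0.47 and RRM2, a subunit of ribonucleotide reductase, by 0.35.

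Mitosis genes were mixed, with 11 falls (21.6%, against 8.63% of all genes) and 3 rises (5.88%, against 7.37%) of 51. Without control 1 or control 2 the falls numbered 2 and 2 and the rises 3 and 3, and 21 members lie in the highest level quartile. ECT2, which drives cytokinesis, fell from 5334 and 5467 to 3228 and 3068 (-0.78, limma adjusted p = 8.95e-05). CDC20, the activator of the anaphase-promoting complex, rose from 290.1 and 279 to 472 and 484 (0.74, adjusted p = 0.000442), the centromeric histone CENPA by 0.83 and the kinase NEK2 by 0.63, and these 3 rises were called in every alternative. CDKN1A, or p21, which blocks cyclin-dependent kinases, rose from 221 and 197 to 372 and 438 (0.95, adjusted p = 0.000643). The p53 target list as a whole gave 4 rises (14.3%) and 3 falls (10.7%) of 28, the falls being PLK2 (-0.37), PPM1D (-0.37) and XPC (-0.39). Without control 1 it gave 2 rises and 0 falls, and without control 2 it gave 1 and 0.

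Biosynthetic and stress lists had more falls than rises. For cholesterol and fatty acid synthesis, 13 of 34 fell (38.2%, against 8.63% of all genes) and 0 rose (median -0.199), led by HMGCS1, from 1623 and 1614 to 1096 and 981 (-0.64, limma adjusted p = 0.000617), IDI1 (-0.57) and ACAT2 (-0.50), enzymes of the mevalonate branch, and ELOVL5 (-0.45). For ATF4 and amino acid stress, 12 of 34 fell (35.3%) and 1 rose (median -0.144). SLC7A11, the cystine importer, fell from 517 and 545 to 280.1 and 235 (-1.05, adjusted p = 0.000284), the serine synthesis enzyme PSAT1 by 0.55, and the glycine transporter SLC6A9 by 0.88. Chaperones fell in 13 of 34 (38.2%) and rose in 1 (median -0.137), with HSPD1 from 2911 and 2946 to 1867 and 1799 (-0.68, adjusted p = 0.000193) and its partner HSPE1 (-0.53), whose gene runs from the same promoter region in the other direction. Of these lists, 20, 15 and 26 members are in the highest level quartile, where 23.3% of genes fell.

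With 1 control left out, fewer of these falls were called. Falls numbered 10 and 10 among immediate early genes, 7 and 5 among histones, 5 and 5 among cholesterol genes, 4 and 3 among ATF4 genes, 7 and 5 among chaperones and 3 and 4 among replication genes, without control 1 and control 2. Without overexpression 1 or 2, the histone falls were 29 and 35. With library size alone the medians rose by about as much as that of all genes, to -0.163 for histones, -0.0984 for cholesterol genes and -0.0727 for immediate early genes, with falls of 11, 10 and 13.

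Ribosome biogenesis genes fell in 14 of 65 cases (21.5%, against 8.63% of all genes) and rose in 1 (median -0.106), with EBNA1BP2 (-0.46), LTV1 (-0.41), DDX47 (-0.31) and DDX21 (-0.26). Cytosolic ribosomal protein genes fell in 11 of 78 cases (14.1%), led by RPL36A (-0.53), with a median of -0.103. Since 55 of these 78 lie in the highest level quartile, where 23.3% of genes fell, this share is below that of their level. MYC targets from a hallmark-like list fell in 16 of 68 (23.5%) and rose in 0 (median -0.0971), with TBRG4 (-0.64) and LDHA (-0.59) besides HSPD1 and HSPE1. Of ribosome biogenesis genes 30 and of MYC targets 28 lie in that quartile. With library size alone the medians of these lists were near 0, at -0.00498, -0.00234 and 0.0035. The falls numbered 1, 1 and 5, in that order of lists, whichever control was left out. Mitochondrial ribosome genes (0 rises and 5 falls of 73, or 6.85%, median -0.00229) and complexes I to V (3 and 3 of 74, or 4.05% each, median 0.0162) had shares below those of all genes.

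Lysosomal and hypoxia genes had more rises than falls. Of 57 lysosome genes, 12 rose (21.1%, against 7.37% of all genes) and 3 fell (5.26%, against 8.63%; median 0.141), with the acid lipase LIPA from 832 and 858 to 1289.6 and 1251 (0.59, limma adjusted p = 0.000538) and the proton pump subunit ATP6V0A1 (0.48) among rises. The protease CTSC fell from 975 and 1009 to 517 and 489 (-0.98, adjusted p = 5.94e-05) and the galactosidase GLA by 0.45. Of 36 glycolysis and hypoxia genes, 9 rose (25%) and 4 fell (11.1%), with a median of 0.117. The enolase ENO2 rose from 148 and 145 to 287 and 334 (1.07, adjusted p = 0.000312), PFKFB4, which makes an activator of glycolysis, by 0.55 and the peptide hormone ADM by 0.56, while LDHA, which makes lactate, fell from 3116 and 3239 to 2109 and 2107 (adjusted p = 0.000324). Lysosome rises numbered 5 and 4 without control 1 and control 2, and hypoxia rises 5 and 5, with 1 and 1 hypoxia falls.

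Few genes of Mediator itself passed the test apart from MED30. Of 31 other subunits, MED31 (-0.30) and MED17 (-0.25) fell and MED12L (0.35) rose, and none of these 3 calls held without control 1 or control 2. Of 45 genes of the polymerase II machinery, 3 rose and 3 fell, or 6.67% each, close to the 7.37% and 8.63% of all genes. Rises and falls numbered 1 and 1 without control 1, and 1 and 0 without control 2. NELFB, a subunit of the pausing factor NELF, rose by 0.60, and HEXIM1, which inhibits the elongation kinase P-TEFb, rose from 837 and 754 to 984 and 1175 (0.44, limma adjusted p = 0.0144). TBP, the TATA-binding protein, fell from 444 and 443 to 307 and 329.8 (-0.48, adjusted p = 0.00478) and GTF2F2 by 0.29. The MYC network gave 1 rise (9.09%) and 2 falls (18.2%) of 11, one of the falls being MYC itself. The sugar-sensing factor MLXIPL rose by 0.71 and MXD1, a MYC antagonist, fell by 0.25. Without a trend in the variance neither MLXIPL nor MXD1 passed (limma adjusted p = 0.0666 and 0.135). MXD1 did not pass with library size alone either (limma adjusted p = 0.117).

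Cell identity and matrix genes changed singly. KRT18 fell by 0.54, KRT8 by 0.41 and KRT80 by 0.50, and the list of keratins and junctions gave 2 rises (8.33%, against 7.37% of all genes) and 5 falls (20.8%, against 8.63%) of 24. VIM fell from 8870.1 and 8901 to 6719 and 5938 (-0.49, limma adjusted p = 0.002), and the collagen gene COL5A1 rose from 154 and 153 to 281 and 279.8 (0.87, adjusted p = 0.000452), within a TGF-beta and matrix list of 4 rises (10.8%) and 6 falls (16.2%) of 37. LOXL2, a crosslinker of collagen, fell by 0.43. YAP-TEAD genes gave 3 rises (11.5%) and 6 falls (23.1%) of 26, the falls including NT5E (-0.45), CRIM1 (-0.49), TEAD3 (-0.48) and WWTR1 (-0.32). Rises in this list were 0 and falls 3 with either control left out. For matrix genes rises and falls numbered 2 and 2 without control 1 and 3 and 3 without control 2, and for keratins 1 and 3, and 0 and 5.

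Growth factor lists were small and divided. IGF2, a growth factor of fetal tissue, went from 5.24 and 10.4 to 60.3 and 106 (3.26, limma adjusted p = 0.000437), while IGFBP4 fell by 0.88 and IGF1R by 0.29. They are the 1 rise (8.33%, against 7.37% of all genes) and 2 falls (16.7%, against 8.63%) of 12 genes of the insulin-like growth factor list. Without a filter on low values this list gave 0 rises and 0 falls. ERBB3, a receptor of neuregulins, went from 38.7 and 43.6 to 71 and 62.4 (0.68, adjusted p = 0.0205), beside NRG2, in an ERBB list of 3 rises (17.6%, against 7.37% of all genes) and 2 falls (11.8%, against 8.63%) of 17. EREG, an EGF receptor ligand of that list, fell by 0.68. The Notch ligand JAG1 fell from 996 and 949.5 to 634 and 552 (-0.72, adjusted p = 0.000741), and LFNG, which modifies Notch, rose by 0.80. The Notch list gave 1 rise (5.88%) and 2 falls (11.8%) of 17, and 0 rises and 1 fall without a filter on low values. WNT genes gave 1 rise (7.14%) and 3 falls (21.4%) of 14, with CD44, a hyaluronan receptor, falling from 26082 and 26203 to 16177 and 13582 (-0.82, adjusted p = 0.000351). ER protein processing gave 2 rises (4.65%) and 4 falls (9.3%) of 43, shares close to or below those of all genes. Pancreatic cancer drivers gave 2 rises (22.2%) and 1 fall (11.1%) of 9, which were ATM (0.28), STK11 (0.45) and BRCA2 (-0.31). With either control left out, ERBB genes gave 1 rise and 1 fall, WNT genes 0 and 1 and ER processing 1 and 0, while drivers gave 1 rise without control 1 and 0 calls without control 2.

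**Figure D5:**
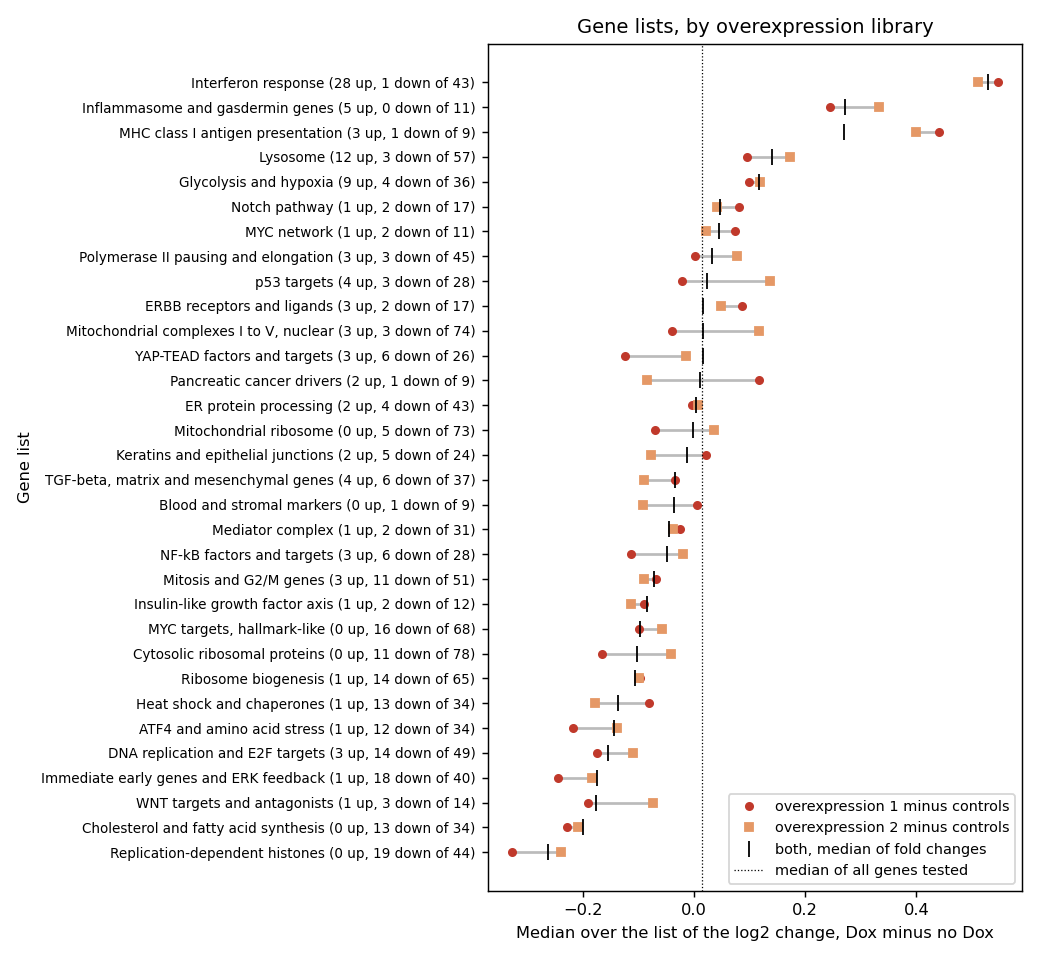
Median over each gene list with 9 or more tested genes, the list of genes the study discusses left out (its median was 0.582), of the log2 change against the mean of the controls (x axis) in overexpression 1 (red circles) and overexpression 2 (orange squares), with the median of the fitted fold changes (black ticks) and that of all genes tested (dotted line). Labels on the y axis give the list and how many of its tested genes rose and fell. Of the lists shown, interferon response is highest (0.528) and replication-dependent histones are lowest (-0.263), with both libraries on the same side.

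The 2 overexpression libraries did not respond alike at every gene. Among genes with a mean log2 level of 8 or more, the largest differences between them were in RN7SK, the RNA that holds P-TEFb inactive (1248 and 615, controls 803 and 1385), SNORA73A (351 and 188), LINC00342 (396 and 238), HPS5 (1436 and 2374, controls 1684 and 1683) and ERCC6L2-AS1 (227 and 366). None of the 5 was called. RN7SK and SNORA73A are short structured RNAs, and RN7SK differed between the controls as well.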

How the data were processed

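PRO-seq reads were, per the methods and the submitters' processing notes, trimmed with Trim Galore, mapped to hg38 with Bowtie2, counted per gene body in the sense direction (featureCounts 2.0.3) and tested with DESeq2 2.11.40.8. The 4 deposited MED30 tables hold a score, which the authors scaled to nearly equal totals by steps not given in the sources used here. The other 8 deposited tables hold raw counts and were used for likeness only. Of 25056 rows, 23689 had current symbols, 620 were matched by older symbols, 736 kept their names and 11 rows named by numbers (0.0777% to 0.0823% of the totals) were left out. In R 4.3.3, scores were TMM-scaled (edgeR 4.0.16), taken as log2(score + 1), whose folds understate low genes, and tested with limma 3.58.1 (eBayes with a trend, Benjamini-Hochberg), 2 against 2 libraries without a block. A count model was tried only as an alternative, with DESeq2 1.42.0 as another. The fit was tested on simulated data. Positions came from GENCODE (GRCh38, 13899 genes matched by symbol) and promoters from RefSeq (11179 matched).

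Genes were named by rule: 12 the study discusses, the 15 largest rises and falls among called genes with a mean log2 level of 5 or more and no overlap, 5 in each direction by p, 4 of each list by p, 5 by difference between overexpression libraries at a level of 8 or more, and called neighbours within 100 kb. Others were named after their values were seen. Members and lists were chosen with earlier results of these data known. The same-numbered replicates share only a number. Some genes that the rule names are not reported here.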

Additional observations from a re-analysis of the deposited data

How the results depend on the processing

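The 2363 calls were 367 without a filter on low values, 692 without a trend in the variance, 956 with DESeq2 on the values treated as counts, and 761 to 6761 when 1 library was left out, with the lone library assumed to vary like the other group. The share of calls that rose, 46%, was 73% with library size alone, 61.3% without a trend and 25.6% with DESeq2. The 2501 genes at the study thresholds were 1312 with DESeq2. A replicate block gave 2521 calls, of which 50.2% rose. The replicate difference of the controls and that of the overexpression libraries correlated at -0.15 across genes (-0.274 at higher levels). Same-numbered libraries thus tended to deviate in opposite directions, and the numbers do not pair the samples. A crossed replicate block, chosen after seeing the data, gave 4007 calls. With 1 library left out, RN7SK ran from -0.78 to 0.24 and HPS5 from -0.23 to 0.49; both changed direction without overexpression 2 (adjusted p = 0.0129 and 1.98e-06). Of 164 called named genes, 76 lost their call without a filter, 74 without a trend, 42 with DESeq2 (some of them without an adjusted p), 48 and 50 without control 1 and control 2, and 16 with library size alone; 0 of them changed direction in these alternatives. Depth is unknown, so precision rests on the spread of 2 libraries, and genes near the filter are the least certain.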

Other observations

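Around MYC on 8q24, noncoding RNAs fell with MYC in part. Of 8 tested genes within 1000 kb of MYC that have a position in the annotation, 2 fell and 0 rose, where 8.63% of all genes fell. CASC8, 253 kb before MYC, went from 113 and 117 to 50.6 and 54.8 (log2 fold change -1.12, limma adjusted p = 0.000885), and CASC19, 508 kb before it, from 405 and 432 to 307 and 259.9 (-0.56, adjusted p = 0.00578). PVT1, 51.6 kb after MYC and the most transcribed of them, had 11927 and 11734 without Dox and 10589 and 10362 with Dox (-0.18, adjusted p = 0.0605). CASC11, which overlaps MYC on the opposite strand, had a log2 fold change of -0.35 (adjusted p = 0.221), CCDC26 of -0.42 (0.069), PRNCR1 of -0.34 (0.296), CCAT2 of -0.35 (0.372) and MIR1204 of 0.03 (0.947). CCAT1 and CASC21 are also RNAs of 8q24 and have no position under these names in the annotation used. They were lower with Dox by 0.43 (2613 and 2575 to 2080.3 and 1771) and by 0.25 on the log2 scale, without an adjusted p given here. This region was chosen after the values were seen.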
